A study of Homo sapiens with 8 samples.

Results

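The interferon regulatory factor (IRF) genes other than IRF1 and IRF9 were examined for open chromatin in U2OS, a human osteosarcoma cell line. The 6 genes, IRF2, IRF3, IRF4, IRF5, IRF7 and IRF8, were taken by name from 19970 protein-coding genes on chromosomes 1 to 22 and X. No measured value entered that rule, but earlier results of these data were known when the genes were chosen. FAIRE-seq, which isolates and sequences the DNA that formaldehyde leaves free of protein, was done on wild-type (WT) U2OS and on cells lacking ZBTB48 (KO), a zinc finger factor that binds TTAGGG repeats. There were 4 groups of 2 libraries, namely WT untreated, WT with 250 U/ml interferon gamma (IFNγ), ZBTB48 KO untreated and ZBTB48 KO with the same IFNγ dose. Each genotype was represented by 2 clones, WT_4 and WT_5 for WT and KO_C5 and KO_D2 for KO, and each clone gave 1 untreated library (replicate 1 or 2 of its group) and 1 IFNγ library with the same number. The labels give 24 h of IFNγ, whereas the study's text also names a longer exposure for sequencing, so the duration is uncertain. Each genotype rests on 2 clonal lines, and a difference between genotypes and a difference between clones cannot be told apart beyond those lines.

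IRFs are transcription factors that share a DNA-binding domain and recognise interferon-stimulated response elements (ISRE), whose core repeats the letters GAAA. IRF3 and IRF7 are held in the cytoplasm until kinases downstream of nucleic acid sensors phosphorylate them, after which they turn on type I interferon genes. IRF5 acts downstream of endosomal Toll-like receptors. IRF4 and IRF8 are mostly lymphoid and myeloid factors that bind DNA with partners such as PU.1, encoded by SPI1. IRF2 is best known as a counterpart of IRF1 that occupies the same elements, often as a repressor. IFNγ signalling acts on genes through gamma-activated sites (GAS, TTCNNNGAA), and IRF8 is a known IFNγ-responsive gene in leukocytes.

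The measurements were lists of peaks, 1 list for each library, and each peak carried a fold enrichment over local background and a −log10 p. Promoter rank was defined as the percentile of −log10 p, within the library's own list, of the strongest peak overlapping 1 kb either side of any annotated transcription start site (TSS) of a gene, and it was 0 where no peak was listed. The lists held between 16730 and 37533 peaks, and 58.7% to 69.8% of protein-coding genes had a promoter peak in a given library. Sequencing depth is not in the lists. The lowest local background in a list, which in MACS2 is the mean number of fragments expected across the genome, ranged from 0.621 to 1.08 fragments per position. At regions found in all 8 libraries the median local background was 1.64 to 1.73 times that floor in WT libraries and 2.98 to 3.10 times in KO libraries, so the denominator of the fold was larger in KO. No batch or date is given in the labels. The promoter of ZBTB48 itself had a peak in 8 of 8 libraries (rank 64.0 to 95.3), which is no check of the knockout since a promoter can be open without an intact coding sequence.

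U2OS identity was checked against marker genes. Of 9 osteoblast lineage markers, 4 had a promoter peak in all 8 libraries (RUNX2, COL1A1 and SP7 among them). In that list 3 markers (COL1A2, SPP1 and IBSP) had none in any library, and a single library held 4 to 6. Of 7 myeloid markers none had a peak in all 8 libraries, 5 had none in any library and a single library held at most 2. B lymphocyte markers were mixed. Of 7, EBF1 had a peak in all 8 libraries, PAX5 in 7 at ranks of 80.6 to 93.2, and 4 in none. Of 3 pan-leukocyte markers, CORO1A had one in all 8 libraries, LAPTM5 in 2 and PTPRC in none. Of 5 epithelial markers, EPCAM, KRT8 and KRT18 had one in all 8 libraries and CDH1 and KRT19 in 2 each. Promoter peaks alone thus did not set one lineage apart.

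The 6 loci, each taken as the gene body with 10 kb on either side, held 48 of the 195897 peaks. Joining peaks of the 8 lists that shared at least 1 bp gave 12 regions at the 6 loci of 52105 in the whole series. IRF2, IRF3 and IRF8 had a promoter peak in 8 of 8 libraries, IRF5 in 3, and IRF4 and IRF7 in none. Among all protein-coding genes 52.1% had a promoter peak in all 8 libraries, 2.13% in exactly 3 and 26.2% in none. The sequences shown are the promoter of IRF2, which had a peak in every library and matches to both interferon elements, and both ISRE matches of a distal IRF8 site listed in IFNγ libraries alone. Capitals mark matches to the ISRE core GAAANNGAA or to GAS on either strand. The ISRE cores of the IRF2 promoter and of the first distal match read on the strand opposite to the one printed. In the distal pair capitals mark the ISRE core alone, and the second holds a GAS match that is partly in lower case.

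IRF2 promoter, chr4:184474634-184474834, + strand of GRCh38, around the peak summit: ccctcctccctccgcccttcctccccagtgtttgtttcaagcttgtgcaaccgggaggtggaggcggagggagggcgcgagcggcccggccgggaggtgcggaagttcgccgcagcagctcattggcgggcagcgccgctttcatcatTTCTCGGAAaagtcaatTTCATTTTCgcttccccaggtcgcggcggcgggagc
IRF8 distal site, chr16:85889059-85889085, + strand of GRCh38, ISRE core: cccagtaggTTCATTTTCagtttgtag
IRF8 distal site, chr16:85889169-85889195, + strand of GRCh38, ISRE core: catttcataGAAAAGGAAacagaggtg

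In the IRF2 promoter the GAS and ISRE matches were centred 52 and 69 bases from the median summit, on the side away from the gene. Among 301-bp windows around the summits of all 52105 regions, 7.47% held an ISRE core and 6.88% a GAS match. In 301-bp windows around the start of all protein-coding genes (250 bases before to 50 after) these shares were 7.05% and 6.53%. The start window of IRF2 held the GAS match alone, since the ISRE core runs past its edge. Only the share of summit windows therefore applies to that ISRE core. The start windows of IRF7 and IRF8 held 1 and 2 GAS matches and no ISRE core. Those of IRF8 were centred 43 and 24 bases from the median summit of its promoter peak. The start windows of IRF3, IRF4 and IRF5 held no match to either pattern, which says only that these letters are not there.

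**Figure D1:**
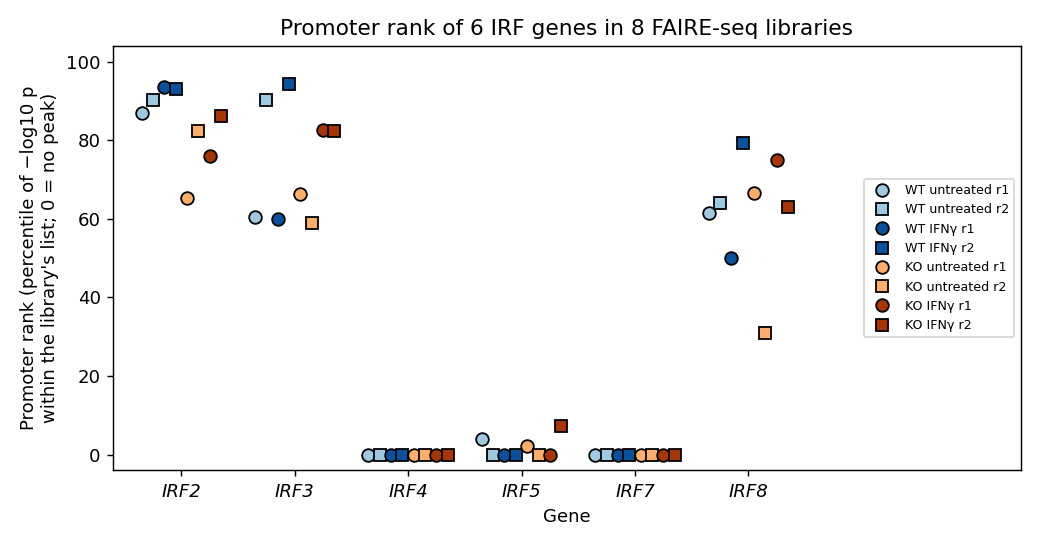
Promoter rank (percentile of −log10 p within the library's list, 0 where no peak is listed) of each of the 6 IRF genes. Each point is 1 library, with colour for the group and shape for the replicate. IRF2 lies at 86.8 or above in WT and at 86.2 or below in KO. IRF3 and IRF8 overlap between WT and KO libraries and between IFNγ and untreated libraries. IRF5 stays at 7.16 or below, and IRF4 and IRF7 are at 0.

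IRF2, the counterpart of IRF1, had the highest promoter ranks of the 6 genes in 5 of the 8 libraries. Its gene lies on the minus strand at chr4:184385702-184474558, and its main peak was centred 184 bp upstream of the canonical TSS (GRCh38 position 184474550). The start of the divergent long noncoding RNA IRF2-DT lies 68 bp from that summit. Summits of the 8 libraries fell within 35 bp of each other. Promoter rank was 86.8 and 90.3 in untreated WT, 93.6 and 93.0 in WT with IFNγ, 65.2 and 82.4 in untreated KO, and 76.1 and 86.2 in KO with IFNγ. Every WT library thus ranked above every KO library, a separation also found at 6.77% of the 10395 promoters with a peak in all 8 libraries. The clone means were 90.9 ± 1.02 for the WT clones and 77.5 ± 9.67 for the KO clones (SD, n = 2), a difference of 13.5 percentile points. An exact two-sided permutation test over the 6 assignments of clones gave p = 0.33, the smallest it can give, and 1 after Benjamini-Hochberg adjustment over 14737 genes.

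The fold enrichment of this IRF2 peak was 67.7 and 51.4 in untreated WT, 58.6 and 72.3 in WT with IFNγ, 19.4 and 30.3 in untreated KO, and 25.3 and 26.4 in KO with IFNγ. Every WT value lay above every KO value, as at 22.8% of the 11551 regions found in all 8 libraries. Numerator and denominator could be separated, since fold and p together fix the number of fragments at the summit and the local background. Fragments at the summit numbered 111, 103, 94 and 127 in the WT libraries (untreated, then IFNγ) and 52, 80, 82 and 103 in the KO libraries, so the genotypes overlapped. Local background was 0.656, 1.02, 0.621 and 0.770 fragments in WT, equal to the floor of each list, and 1.73, 1.67, 2.28 and 2.93 in KO, or 2.41 to 2.72 times the floor. Divided by the floor of the list in place of the local background, fragments were 169, 100.6, 152 and 165 in WT and 72.4, 128, 90.5 and 95.5 in KO. On that scale too the genotypes overlapped. How far the local background accounts for the difference in rank was not tested beyond this rescaling. In libraries made from many cells, fewer cells with an open promoter and less open chromatin per cell cannot be told apart.

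With IFNγ the IRF2 rank was higher in 4 of 4 clones, by 6.78 in WT_4, 2.62 in WT_5, 10.9 in KO_C5 and 3.80 in KO_D2. A higher rank in all 4 clones was found at 16.4% of promoters with a peak in all 8 libraries. The mean difference was 6.03 percentile points, from 81.2 ± 11.2 to 87.2 ± 8.14 (SD, n = 4), and IFNγ and untreated libraries overlapped. It was 2.30 points with lists of equal length and 0.69 points without untreated KO replicate 1. The exact two-sided permutation test over 70 assignments of libraries gave p = 0.457 (adjusted p = 1). With each clone as its own block the exact p was 0.125, the smallest that 16 sign changes allow (adjusted p = 0.798).

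IRF2 also had an intronic region at chr4:184472813-184473477, centred 1448 bp downstream of the canonical TSS and 493 bp from the start of the noncoding gene ENSG00000270426. It was listed in 6 libraries, all but WT with IFNγ replicate 1 and untreated KO replicate 1. Its fold enrichment was 16.3 and 9.46 in untreated WT, 11.01 in the remaining WT IFNγ library, 6.78 in untreated KO and 5.89 and 6.63 in KO with IFNγ. The 3 WT values lay above the 3 KO values, as at 9.87% of the 1104 regions found in 3 WT and 3 KO libraries, and local background was 1.29 to 1.37 times the floor in WT and 1.70 to 1.73 times in KO, a narrower gap than at the promoter. With lists of equal length the region was left in 2 WT libraries and 1 KO library. Another intronic IRF2 region was centred 488 bp downstream of the canonical TSS and 13 bp from another annotated IRF2 start. It was listed only in WT with IFNγ replicate 2, the longest list, with a fold of 4.52 on 7 fragments. Over the rest of the 88857-bp gene no peak was listed in any library.

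**Figure D2:**
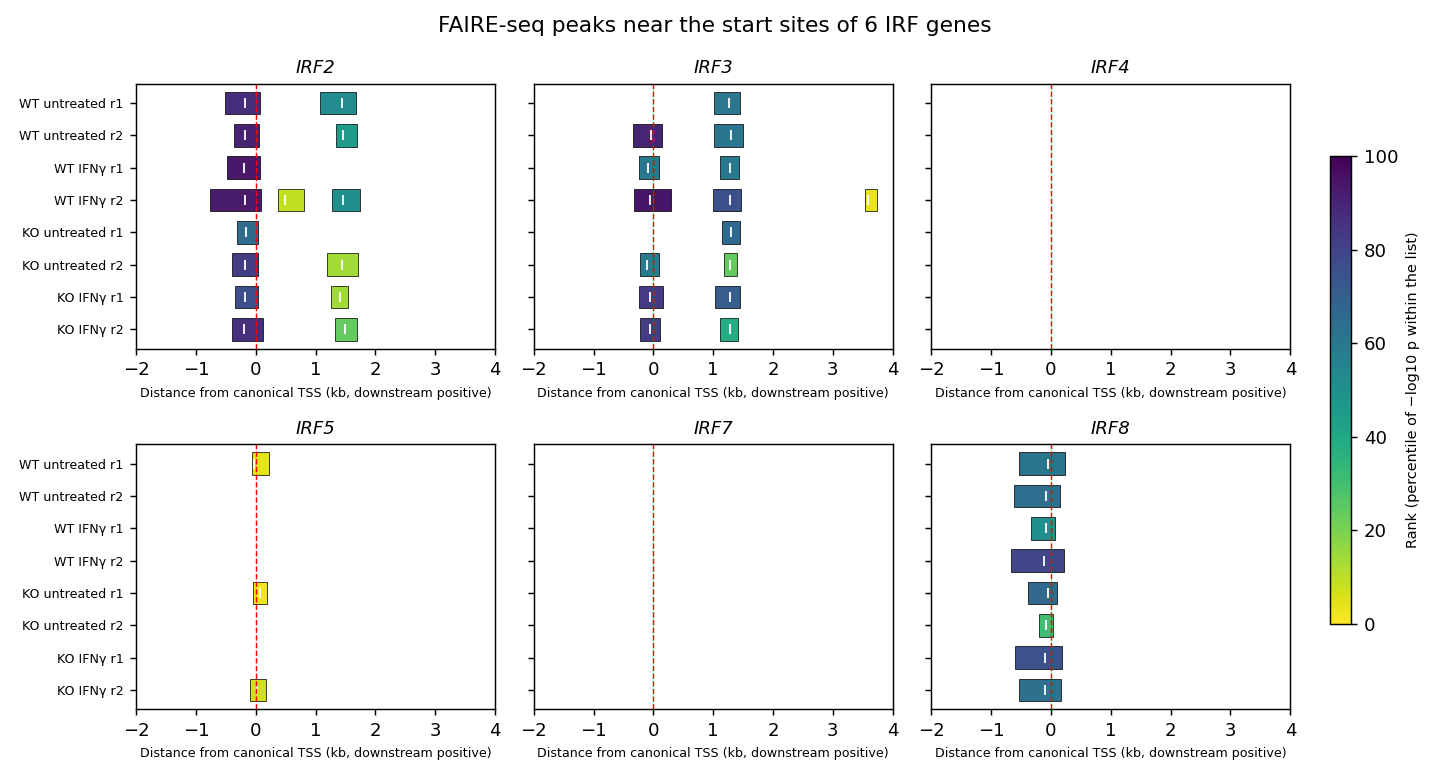
Peaks within 2 kb upstream and 4 kb downstream of the canonical TSS (dashed line at 0 kb) of the 6 IRF genes, 1 row per library. Each bar spans a peak, the white tick is its summit and the colour is its rank. IRF2, IRF3 and IRF8 carry peaks at or beside the start in every library, the IRF3 start peak is missing in the untreated replicate 1 libraries of both genotypes, IRF5 bars are pale, and the IRF4 and IRF7 panels are empty. Regions farther out are not drawn.

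IRF3, the constitutively made factor that responds to nucleic acid sensing, lies on the minus strand at chr19:49659569-49665875 and starts head to head with BCL2L12, 33 bp away. Its 20 peaks fell into 6 regions. An intronic region at chr19:49664361-49664869, 56 bp from an alternative IRF3 start, was found in all 8 libraries. The fold enrichment there was 23.2 and 15.0 in untreated WT, 19.2 and 29.0 in WT with IFNγ, 19.5 and 7.83 in untreated KO, and 21.2 and 7.65 in KO with IFNγ. The lowest values were both from clone KO_D2, and WT and KO overlapped.

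The region at the shared start of IRF3 and BCL2L12 (chr19:49665568-49666195, summit 18 bp from a BCL2L12 start) was found in 6 libraries. All 4 IFNγ libraries had it, and of the untreated libraries only replicate 2 of WT and of KO did. The fold was 48.5 in the untreated WT library and 15.8 in the untreated KO library that had it, against 19.1 and 75.8 in WT with IFNγ and 28.8 and 21.4 in KO with IFNγ. Fragments at the summit were 106 and 46 in those untreated libraries, 32 and 143 in WT with IFNγ, and 110 and 94 in KO with IFNγ. The same 6 libraries held the peak at a −log10 q of at least 3, at a fold of at least 4, and with all lists shortened to 16730 peaks. Of 1946 regions found in 6 libraries, 43.1% were in all 4 IFNγ libraries, 4.47% were in all 4 untreated libraries and 22.9% lacked exactly the same pair of libraries. The pattern at IRF3 is therefore a common one in these lists.

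Promoter rank at IRF3, taken from the stronger of these regions, was 60.5 and 90.2 in untreated WT, 59.9 and 94.4 in WT with IFNγ, 66.2 and 58.9 in untreated KO, and 82.6 and 82.3 in KO with IFNγ. BCL2L12, an apoptosis regulator of the BCL2 family, had identical ranks because both genes take them from the same peaks. The WT clones stood apart, WT_4 at 60.5 and 59.9 and WT_5 at 90.2 and 94.4 without and with IFNγ. IFNγ minus untreated was 10.8 points (exact permutation p = 0.371, adjusted p = 1) and WT minus KO 3.75 points (exact permutation p = 1). With each clone as its own block the exact p for IFNγ was 0.25 (adjusted p = 0.831). With the canonical start alone the IFNγ difference was 42.5 points (exact permutation p = 0.171). In untreated WT replicate 1 and untreated KO replicate 1 the nearest peak lay 1019 and 1142 bp from that start. These peaks fell just outside the 1 kb window, so neither library counted a promoter peak there. With any annotated start and 1 library left out, the IFNγ difference was 5.97 to 17.9 points. The rank difference with IFNγ was −0.54 in WT_4 and 4.15 in WT_5, and 16.4 in KO_C5 and 23.3 in KO_D2. Both WT differences were below both KO differences, as at 38.1% of promoters with a peak in all 8 libraries (exact permutation p = 0.33, the smallest possible, adjusted p = 0.825).

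A more distant IRF3 region at chr19:49672348-49672654, 6658 bp upstream of the IRF3 start and 406 bp from an alternative BCL2L12 start, was listed in 3 libraries. They were untreated WT replicate 2 (fold 5.36), WT with IFNγ replicate 2 (15.2) and KO with IFNγ replicate 1 (5.49), which have the 3 longest lists. Untreated WT replicate 1 had a pair of peaks downstream of the gene, with folds of 6.78 and 4.83, and WT with IFNγ replicate 2 had one in a coding exon with a fold of 3.90. Each of these was listed in 1 library, as were 38.9% of all regions.

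IRF8, the myeloid and B cell factor, lies on the plus strand at chr16:85899116-85922606. Its promoter region (chr16:85898501-85899395) was found in all 8 libraries, with the median summit 90 bp upstream of the canonical TSS. The fold enrichment was 22.3 and 14.8 in untreated WT, 12.8 and 30.5 in WT with IFNγ, 17.8 and 8.49 in untreated KO, and 22.04 and 12.1 in KO with IFNγ. Fragments at the summit were 46, 40, 28 and 70 in WT and 60, 24, 84 and 52 in KO, over local backgrounds of 1.11 to 1.77 in WT and 1.94 to 3.38 in KO. Neither genotype nor treatment separated the libraries on fold or on fragments.

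Promoter rank at IRF8 was 61.5 and 64.1 in untreated WT, 50.02 and 79.2 in WT with IFNγ, 66.5 and 30.8 in untreated KO, and 74.9 and 62.9 in KO with IFNγ. The rank differed with IFNγ by −11.5 in WT_4 and by 15.1, 8.35 and 32.1 in WT_5, KO_C5 and KO_D2. The mean difference was 11.01 points, from 55.7 ± 16.8 to 66.8 ± 13.1 (SD, n = 4, exact permutation p = 0.429, adjusted p = 1). With each clone as its own block the exact p was 0.375 (adjusted p = 0.885). Without untreated KO replicate 2, the lowest library, the IFNγ difference was 2.69 points and the WT minus KO difference of 4.93 points (exact permutation p = 0.667) changed sign to −3.10.

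The distal IRF8 site, about 10 kb upstream (chr16:85888874-85889210), was listed in 3 IFNγ libraries and in no untreated library. The fold was 7.06 on 11 fragments in WT replicate 1, 3.89 on 12 fragments in KO replicate 1, and 2.83 on 10 fragments in KO replicate 2, whose peak ended just outside the 10-kb limit. Ranks were 22.6, 3.32 and 0.00607, so the last was among the weakest peaks of its list. Of 4233 regions found in 3 libraries, 15% were in 3 IFNγ and no untreated libraries and 0.638% the reverse. At a fold of at least 4, or with lists of equal length, only the WT library kept it. The first ISRE match printed above ends 1 base after the median summit, and a GAS match overlaps the second.

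IRF5 (plus strand, chr7:128937457-128950038), which acts downstream of endosomal Toll-like receptors, had 1 weak region at its start, chr7:128937833-128938150. It was listed in untreated WT replicate 1 (fold 4.23, 6 fragments), untreated KO replicate 1 (4.09, 7 fragments) and KO with IFNγ replicate 2 (4.89, 11 fragments). Ranks were 4.06, 2.14 and 7.16, near the bottom of each list. The 3 libraries shared neither genotype nor treatment nor replicate number. At a −log10 q of at least 3 only the KO IFNγ library kept the peak, and with lists of equal length none did. In the other libraries the nearest peak was 27.8 to 75.0 kb from the IRF5 start. IFNγ minus untreated was 0.24 points and WT minus KO −1.31 points (exact permutation p = 1 and 0.667).

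IRF4, the lymphoid factor, and IRF7, the amplifier of the type I interferon response, had no peak in the gene body or within 10 kb in any library, with or without IFNγ. The peak nearest to the IRF4 start (plus strand, chr6:391739-411443) was 98.9 to 99.2 kb away in every library, at the promoter of DUSP22. For IRF7 (minus strand, chr11:612553-615983) the nearest peak was 12.6 to 12.8 kb away, near SCT, in the 3 libraries with the longest lists, and otherwise 39.2 to 39.4 kb away at PHRF1. A position missing from a list had too few fragments over its local background to pass the threshold. The smallest listed summits had 5 or 6 fragments, but where background was higher more were needed. In KO with IFNγ replicate 2 a summit of 10 fragments over a background of 2.88 passed with a −log10 q of 1.31. Openness below such levels was not detectable at this depth.

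**Figure D3:**
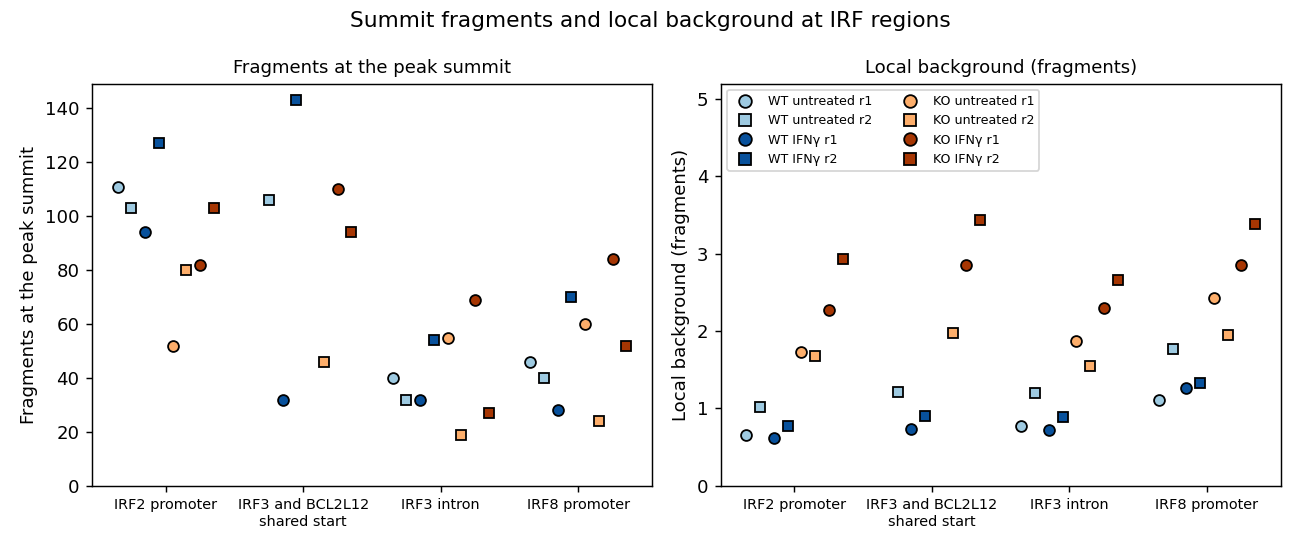
Fragments at the summit (left) and local background in fragments per position (right) at the main regions of IRF2, IRF3 and IRF8. Each point is 1 library, and a missing point means that no peak was listed. Summit fragments overlap between WT and KO at all 4 regions, while local background is higher in every KO library than in every WT library.

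The absence of peaks at IRF4 and IRF7 did not go with low CpG content, a feature that was not part of the choice of genes. Within 500 bp either side of the canonical TSS the observed over expected CpG ratio was 0.812 for IRF2, 0.675 for IRF3, 0.792 for IRF4, 0.656 for IRF5, 0.736 for IRF7 and 0.972 for IRF8. IRF8 stood at percentile 96.6 of all protein-coding genes. Among 6517 genes with a ratio between 0.6 and 0.8, the bin of IRF3, IRF4, IRF5 and IRF7, 8.44% had no promoter peak and 63.7% had one in all 8 libraries. Among 6368 genes between 0.8 and 1.0, the bin of IRF2 and IRF8, these shares were 4.26% and 80.5%. IRF4 and IRF7 thus belong to the 8.44% of their bin with no listed peak.

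**Figure D4:**
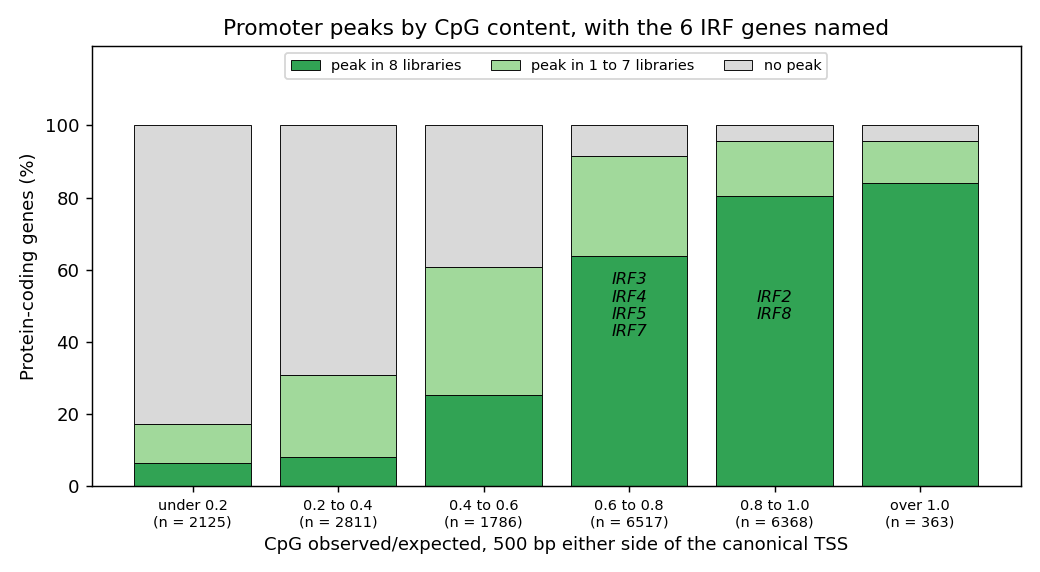
Share of protein-coding genes (%) with a promoter peak in 8 libraries, in 1 to 7 libraries or in none, by CpG observed/expected ratio around the canonical TSS. Bars add to 100%, n below each bar is the number of genes, and the IRF genes are written in their bin. IRF4 and IRF7 share the bin of 0.6 to 0.8, where 8.44% of genes have no peak.

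Counted over the 6 genes, 3.25 ± 0.5 had a promoter peak in IFNγ libraries and 3.5 ± 0.577 in untreated libraries (SD, n = 4). Peaks at the 6 loci numbered 6.5 ± 1.29 with IFNγ and 5.5 ± 1.29 without. Per clone there were 6.5 ± 0.707 peaks in WT and 5.5 ± 0 in KO (SD, n = 2). These counts overlapped between treatments. The peak counts take no account of list length, which ranged from 16730 to 37533 peaks. As shares of their lists, the counts overlapped between WT and KO libraries, and between IFNγ and untreated libraries. The highest and the lowest share were both from untreated WT. With lists of equal length the difference in peak counts was 0 for IFNγ minus untreated and 1 for WT minus KO. In no gene of the 4 with a peak did every IFNγ library rank above every untreated library, which 0.801% of the 14737 genes tested did, and in none was the order reversed, as in 0.0475%. Only IRF2 separated the genotypes, with WT higher, as at 5.98% of genes. The median IFNγ difference of the 4 was 8.43 points beside 2.81 over all genes, and the median WT minus KO difference was 4.34 beside 4.32. By exact permutation tests with Benjamini-Hochberg adjustment 0 of 14737 genes passed 0.05 for IFNγ, and 125 (0.848%) did so unadjusted. The smallest p that this IFNγ test can give is 0.0286. After adjustment over 14737 genes none could pass unless very many reached that p together, so nothing is concluded from the 0.

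The genes around the IRFs gave the context of the pathway. Of 41 listed genes, 16 had a promoter peak in all 8 libraries, 15 in 1 to 7 and 10 in none. Over the 31 genes of the lists with a peak the median IFNγ difference was 2.97 points. Among the other IRF genes, IRF1 ranked between 98.0 and 99.8 in all 8 libraries and IRF9 had a promoter peak in 5.

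Of the 31 listed genes with a peak, 4 ranked higher in every WT library than in every KO library, as did 5.98% of all genes, and none ranked lower, as did 0.224%. TRAF3, an adaptor that links sensors to TBK1, ranked 38.4 to 55.4 in WT and 13.5, 0, 11.1 and 0 in KO. BATF3, a partner of IRF8 in dendritic cells, ranked 49.1 to 55.0 in WT and 12.9 to 36.7 in KO. IKZF1, a lymphoid zinc finger factor, ranked 14.2 to 40.6 in WT and at most 10.6 in KO. IRF2BP2, a corepressor named for its binding to IRF2, ranked 83.6 to 87.9 in WT and 71.1 to 83.5 in KO. Each exact permutation p was 0.33, the smallest possible, with an adjusted p of 1. The median WT minus KO difference of the lists was 3.12 points, below that of all genes.

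Other sensors and adaptors were listed in all libraries of one group and in some of the other. They are named because of that pattern, so their counts are no sign of a group difference. Among all protein-coding genes 21.7% had a promoter peak in 1 to 7 libraries. Of 1946 regions found in 6 libraries, 43.1% were in all 4 IFNγ libraries and 4.47% in all 4 untreated libraries. The share of all promoters with each pattern below was not counted. The cytosolic DNA sensor CGAS had a promoter peak in 4 WT and 3 KO libraries, and in 4 IFNγ and 3 untreated. The RNA sensor IFIH1 had one in 4 WT and 2 KO libraries, and in 4 IFNγ and 2 untreated, both missing ones being untreated KO. RIGI, another RNA sensor, had one in 4 KO libraries and 2 WT libraries, both of clone WT_5. MYD88, the adaptor of IRF5 and IRF7 activation, had one in 4 WT libraries (ranks 24.4, 95.6, 21.2 and 98.6) and in 1 KO library (38.8). ISG15, a ubiquitin-like interferon target, had one in 7 libraries, all but untreated KO replicate 2. TLR9, SPI1, CXCL10 and IFIT3 had one in a single library each, with ranks of 12.5 or below.

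Clone WT_4 lacked the peaks of IRF9 and RIGI in both of its libraries, and MYD88 ranked 24.4 and 21.2 there against 95.6 and 98.6 in WT_5. IKBKE and STING1 of the lists also had a WT peak in WT_5 alone. The WT_4 lists were shorter, with 21715 and 18913 peaks against 29567 and 37533 in WT_5. Promoter peaks covered 64.4% and 60.6% of protein-coding genes in WT_4 and 66.7% and 69.8% in WT_5. How many promoters share this pattern was not counted. At IRF3 the same clone lacked the start peak when untreated and had it on 32 fragments with IFNγ. MYD88 also had peaks in more WT than KO libraries. The part of these differences between clones in the comparisons of IRF3 was not tested.

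**Figure D5:**
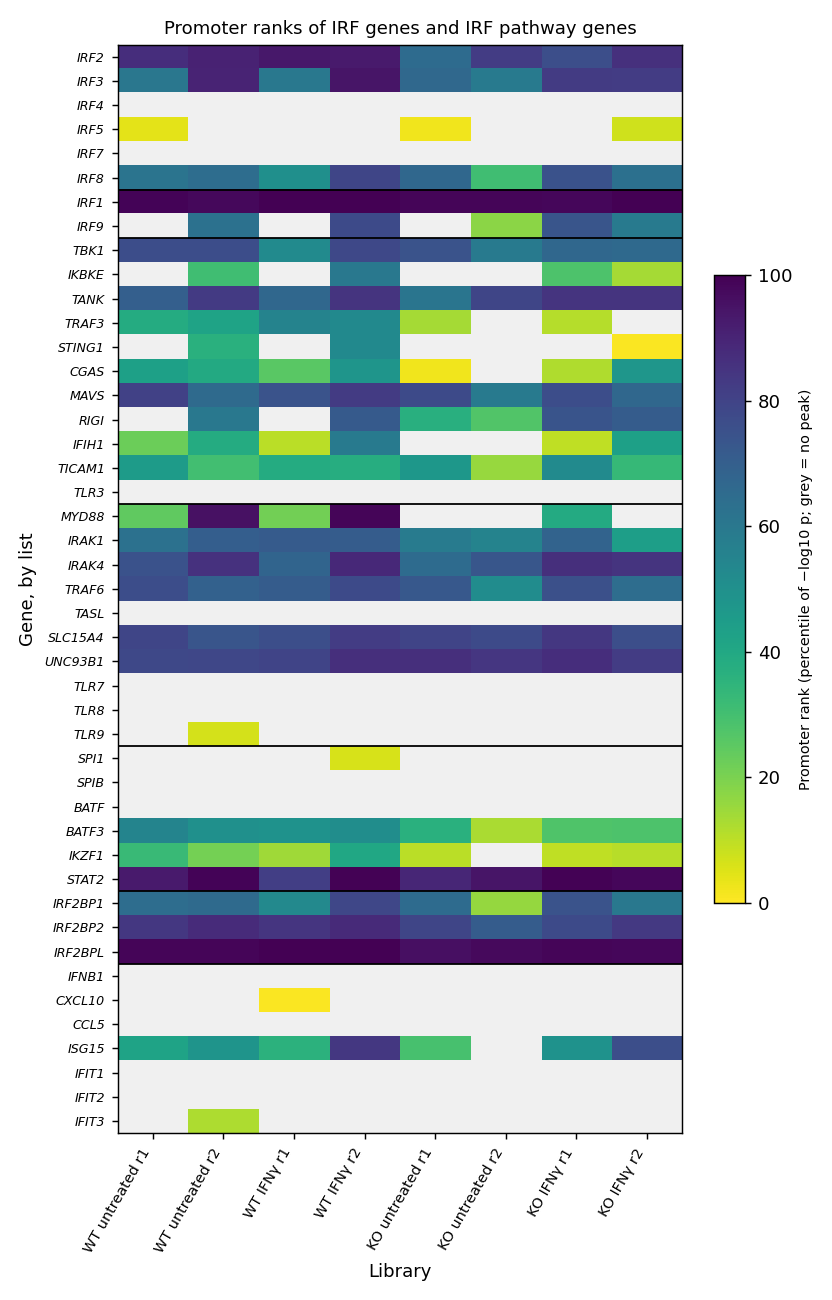
Promoter rank (percentile of −log10 p, grey where no peak is listed) of the 6 IRF genes and of pathway genes in 8 libraries, with black lines between lists. IRF1 and IRF2BPL are dark in every column, and rows such as IRF9, RIGI and MYD88 differ between the replicates of WT.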

How the data were processed

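FAIRE-seq peak lists of 8 U2OS libraries were used. Per the labels, the authors' processing names Trimmomatic, Bowtie2 2.2.5, SAMtools 1.14, MACS2 2.2.7.1 and deepTools 3.5.1 with GRCh38. The study's methods mention input DNA and give reads per sample only as a range, and neither the use of input in peak calling nor the treatment of duplicates is given in the sources used here. The deposited files hold, for each peak, a fold enrichment, a −log10 p and a −log10 q (1.3 or more), a score and a summit offset, called per library by the authors, and hold no counts, so count models were not used.

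Genes and start sites came from GENCODE 44. Fragments and local background at a summit were solved from fold and p, and every peak gave a whole number within 0.01 of its −log10 p. Python 3.11.15, pandas 2.3.3, numpy 2.4.6, scipy 1.17.1 and matplotlib 3.10.9 were used. Libraries were grouped by the labels. IFNγ was tested by exact permutation of 8 libraries (70 assignments), and genotype and the difference of IFNγ changes by exact permutation of 4 clones (6 assignments, n = 2 clones per genotype), two-sided, with Benjamini-Hochberg adjustment over 14737 genes. Replicates are clones named in the labels, and p-values measure only the spread between these libraries. Pairing of treated and untreated libraries comes from those clone labels. The main IFNγ test does not use the pairing, and the clone block does. Deviations from group means correlated at 0.647 in WT and 0.342 in KO clones over genes. The procedures were tested on simulated data.

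All 6 genes were described, with every region at their loci. Pathway genes were named where groups did not overlap or where 1 treatment or genotype was alike throughout. Genes, lists and tests were chosen with earlier results of these data known. The alternatives were stricter q and fold limits, equal list lengths, a 500-bp window, summit overlap, canonical starts, fold in place of rank, a clone block and leaving out each library. Some listed genes and sequences are not reported here.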

Additional observations from a re-analysis of the deposited data

Results flagged for a closer look

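Among 72 groups of 4 libraries examined, 5 had a library far from the other 3. The limit used has a nominal rate of about 1 in 20, which was not measured here and does not hold for tied values. Untreated KO replicate 2 was the lowest untreated library at IRF8, with a promoter rank of 30.8 where the others lay between 61.5 and 66.5. At IRF5 the only WT library with a peak, untreated replicate 1, had a rank of 4.06, and the only IFNγ library with one, KO replicate 2, had 7.16, where the others were at 0. The same libraries had 4 of the 6 IRF genes with a promoter peak where the other WT or IFNγ libraries had 3. So 4 of the 5 rest on a pair of weak IRF5 peaks among tied values.

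Other measures moved in opposite directions with IFNγ in all WT and all KO clones, and these differences were not tested. The local background at the IRF2 promoter peak moved by −0.145 fragments in WT and 0.903 in KO, a difference of −1.05. Relative to each list's floor it was 1.00 in all WT libraries, and without and with IFNγ 2.41 and 2.52 in KO_C5 and 2.67 and 2.72 in KO_D2. At the intronic IRF3 region it moved by −0.173 in WT and 0.766 in KO, a difference of −0.939. Relative to the floor it was lower with IFNγ in all 4 clones, at 1.16 to 1.17 in WT and 2.47 to 2.60 in KO, so the opposite directions are those of the floors. The width of that IRF3 peak moved by −60 bp in WT and 95.5 bp in KO, a difference of −156 bp.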

How the results depend on the processing

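The count of IRF genes with every IFNγ library ranked above or below every untreated library was 0 under each alternative except the replicate block, where 1 gene (IRF2) was higher in all 4 clones (exact permutation p = 0.125). The block changed no other call. The count separating WT from KO was 1 (IRF2) except on log2 fragments over the lowest background, added after the data were seen, where it was 0. The count with both WT clones' IFNγ changes on one side of both KO clones' was 1 (IRF3), 2 with equal list lengths, and 0 with canonical starts, with log2 fold and with log2 fragments. Leaving out 1 library gave 0 for IFNγ, 1 for genotype and 2 to 3 for the difference of changes, where a genotype left with 1 clone's change cannot overlap itself.

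WT minus KO in IRF genes with a promoter peak was −0.25, 0 with equal lists and −0.5 to 0 with 1 library left out. In peaks it was 1, 0.25 in gene bodies alone and 0.25 to 1.75 with 1 library left out. IFNγ minus untreated was −0.25 genes, 0.25 at a −log10 q of at least 3 and with canonical starts, 0 with equal lists and −0.5 to −0.0833 with 1 library left out. In peaks it was 1, 0 with equal lists and 0.5 to 1.5 with 1 library left out.

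Signs turned for IRF8 WT minus KO with equal lists (−3.20) and log2 fragments (−0.0866), for the IRF2 difference of changes with equal lists (6.54), log2 fold (0.0491) and log2 fragments (0.325), for that of IRF8 with log2 fragments (0.0498), and for IRF5 with IFNγ on log2 fold (−0.455) and log2 fragments (−0.782). The cause was not tested. With 1 library left out the ranges that crossed 0 were −1.55 to 1.08 (IRF5, IFNγ), −2.08 to 9.59 (IRF3, genotype), −3.10 to 0.479 (IRF5, genotype), −3.10 to 12.9 (IRF8, genotype), −6.22 to 0.893 (IRF2, difference of changes) and −9.19 to 0.111 (IRF5, difference of changes). Adjusted p of the IRF genes stayed at 0.65 or above throughout. Peak lists hold no weak sites and no depth, which limits every statement on a missing peak.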

Other observations

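The protein-coding genes with promoter ranks closest to those of an IRF gene, by mean absolute difference over the 8 libraries, were PPP1R12C (1.84 points), LENG8 (2.32) and DEPDC1B (2.55) for IRF2. For IRF3 they were FAM200B (3.19), YBX1 (3.26) and GUF1 (3.26). For IRF8 they were CMTM7 (3.39), IRF2BP1 (3.39) and RCAN1 (4.12). Within 5 points there were 90 genes for IRF2, 61 for IRF3 and 26 for IRF8. For IRF5, SLAMF8, NR5A1 and IFITM3 came closest, and 6173 genes lay within 5 points because most ranks are 0.

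IRF2BP1 encodes a corepressor named for its binding to IRF2. It was picked above for ranks close to those of IRF8, so their likeness is no separate result. Its ranks were 64.1 and 65.3 in untreated WT, 52.9 and 78.9 in WT with IFNγ, 64.9 and 15.9 in untreated KO, and 74.4 and 59.8 in KO with IFNγ. IRF2BP1 and IRF8 had their lowest rank in untreated KO replicate 2, the shortest list, and how many promoters did so was not counted. IRF2BPL ranked 96.0 or above in every library.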
